A study of Homo sapiens with 6 samples.

Results

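The genes for the proteins of the cytosolic ribosome were followed in 2 human melanoma cell lines under 3 hairpins. Members were chosen by symbol alone, as RPL or RPS with a number and at most a short suffix, plus RPSA and the 3 stalk genes RPLP0, RPLP1 and RPLP2. The kinases of the RPS6K family and 2 further rows were left out by that rule. It found 84 of the 17468 genes in the deposited table, 52 for proteins of the large subunit and 32 for proteins of the small subunit. The rule itself uses no measured value, although the family was picked for description with earlier results of these data known.

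Ribosomal proteins coat and fold the ribosomal RNAs of the large and small subunits, and a cell makes them in near-equal amounts because each ribosome carries 1 copy of most of them. Their messenger RNAs are among the most abundant of a growing cell. Most begin with a terminal oligopyrimidine tract, a C followed directly by a run of C and T letters, through which mTORC1 and the RNA-binding protein LARP1 control their translation and stability. In pigment cell tumours the family is known mainly as a readout of growth and protein synthesis, and RPL5 and RPL11 also bind MDM2 together with the smallest ribosomal RNA of the large subunit and so link ribosome assembly to p53.

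The comparison had 6 groups of 1 library each. They were Colo800 cells with hairpin ETV1-sh2, Colo800 cells with ETV1-sh1, Colo800 cells with a scrambled hairpin, A375 cells with ETV1-sh2, A375 cells with ETV1-sh1 and A375 cells with the scrambled hairpin. Colo800 and A375 are established melanoma lines, and ETV1 is an ETS-family transcription factor. All cells, grown in medium with 10% serum, were infected with a virus carrying a short hairpin RNA and, per the design text, harvested 4 days later from duplicate infections. Whether each library combines both infections is not stated in the labels or the design text. The treatment labels disagree with that text: they assign 5 nM trametinib, a MEK inhibitor, to ETV1-sh2, DMSO to ETV1-sh1 and 1 uM vemurafenib, a BRAF inhibitor, to the scrambled hairpin, and the protocol speaks of siRNA for 48 hours and drug for 8 hours. Hairpin and drug cannot be told apart in any comparison of hairpins given here. With 1 library per line and hairpin, the lines stand in as the replication of a hairpin and the hairpins as that of a line, so every p-value given here rests on how these 6 libraries scatter, which may be technical.

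The starts of 9 members are shown as examples with and without the pyrimidine tract at the start site that most of the family shares. They were picked and do not stand for the other members. Each run has 40 bases before the annotated start and 20 from it, 5′ to 3′ on the gene's strand, from the RefSeq promoter table for GRCh38.p14, and capitals mark a C followed by at least 4 more C or T letters that begins within 5 bases of the start.
RPS24 (chr10:78033823-78033882, plus strand): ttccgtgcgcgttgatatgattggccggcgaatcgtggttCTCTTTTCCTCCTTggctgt
RPS13 (chr11:17077648-17077707, minus strand): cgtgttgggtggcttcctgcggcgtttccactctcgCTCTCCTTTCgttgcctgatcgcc
RPL22L1 (chr3:170870176-170870235, minus strand): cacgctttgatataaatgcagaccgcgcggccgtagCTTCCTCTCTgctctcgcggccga
RPL35A (chr3:197950150-197950209, plus strand): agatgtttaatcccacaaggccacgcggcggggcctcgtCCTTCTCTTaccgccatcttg
RPL39 (chrX:119791611-119791670, minus strand): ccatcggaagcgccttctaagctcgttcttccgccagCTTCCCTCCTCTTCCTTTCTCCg
RPL41 (chr12:56116593-56116652, plus strand): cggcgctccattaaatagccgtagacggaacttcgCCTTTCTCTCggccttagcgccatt
RPL15 (chr3:23916505-23916564, plus strand): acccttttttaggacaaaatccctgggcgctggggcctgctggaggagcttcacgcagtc
RPS27L (chr15:63157458-63157517, minus strand): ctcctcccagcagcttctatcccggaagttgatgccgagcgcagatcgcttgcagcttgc
RPL7L1 (chr6:42879576-42879635, plus strand): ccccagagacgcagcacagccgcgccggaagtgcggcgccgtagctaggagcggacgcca
Such a tract was present in 50 of the 63 tested members whose promoter was in the table, or 79.4%, with a median length of 11 bases (range 5 to 22). It was present in 21.1% of all 35116 promoters in the table and in 22.7% of the 8711 promoters of tested genes. RPL15, RPS27L and RPL7L1 had none in this window, and neither did RPL10, RPL13, RPL26L1, RPL27, RPL9, RPS15, RPS26, RPS27A, RPS29 and RPS4X. Only a single annotated start per member was searched, so a tract at another start of the same gene would be missed. A member without a tract here may therefore still have one. In addition 4 strings of letters were counted on both strands of the window from 250 bases before the start to 50 after it. The string CCGGAA, a core that many ETS factors can bind, was in 55.6% of these members, against 30.0% of the promoters of tested genes and 17.2% of all promoters. CACGTG was in 6.35% of members and 10.5% of the promoters of tested genes, GGGCGG in 54.0% and 70.8%, and TATAAA in 9.52% and 5.44%. These are letter matches and not measured sites.

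The values were FPKM, which scales fragment numbers by transcript length and by a factor for the library. How the authors set that factor is not stated. Each value is relative to the rest of its library, and fewer cells of one kind cannot be told apart from less RNA per cell. Between 10418 and 11013 genes per library reached 1 FPKM, and absolute depth is unknown. Relative to the A375 scrambled library, depth was 0.768 to 0.859 in Colo800 and 1 to 2.10 in A375. ETV1 itself had 9.80 FPKM with ETV1-sh2 and 54.6 with ETV1-sh1 in Colo800, against 180.3 with the scrambled hairpin. In A375 it had 3.46 FPKM with ETV1-sh2 and 34.6 with ETV1-sh1, against 82.8 with the scrambled hairpin. The ETV1-sh2 libraries thus kept 5.43% and 4.18% of the scrambled level and the ETV1-sh1 libraries 30.3% and 41.8%. Of 9 melanocyte lineage markers, 7 or 8 reached 1 FPKM in the Colo800 libraries and 4 in the A375 libraries. SOX10 was high in both lines, at 549 to 712 FPKM in Colo800 and 353 to 556 in A375. The pigment genes DCT, TYR, MLANA and TYRP1 were below 1 FPKM in all 3 A375 libraries. In Colo800, DCT had 70.8 to 125 FPKM and TYR 14.8 to 84.9. MLANA and TYRP1 were low there too, at 0.51 to 1.85 and 1.44 to 1.70 FPKM.

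Of the 84 members, 7 did not reach the level for testing, a mean of at least 1 FPKM over the 6 libraries, and 77 were tested, 47 of the large and 30 of the small subunit. Of the 7 left out, 2 were listed at 0 in every library, RPL17 being one. RPL6 stayed below 1 FPKM in all libraries, as did RPL38 except for 3.21 in A375 with ETV1-sh1. For 5 of the 7 rows, these 3 included, the Ensembl identifier beside the symbol is not the one the reference gives for that gene: the RPL38 row carries ENSG00000237077, which the reference names RPL38P2, the RPL6 row carries ENSG00000223730, named RPL6P28, and the identifiers the reference gives for the 5 symbols are not rows of the table. Their low values are therefore not read as levels of the genes. The other 2 low members were RPL3L and RPL10L, tissue-restricted copies of RPL3 and RPL10, with means of 0.0756 and 0.301 FPKM.

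Mean FPKM of the tested members ran from 1.91 to 25386. Mean levels were at least 1000 FPKM for 19 members, from 100 to 1000 for 40 and from 1 to 100 for 18. RPL41, which encodes the smallest ribosomal protein, a short basic peptide, was the highest with a mean of 25386 FPKM. RPS24 followed at 3256, RPL11 at 2921, RPLP1 at 2749 and RPL37 at 2735. At the low end of the tested members were RPL7 at 1.91, RPL36A at 7.27 and RPS3A at 7.27 FPKM, although each is a core protein of every ribosome. The family has many processed pseudogenes, 1092 named ones for 72 members in GENCODE release 29, and reads shared with such copies cannot be assigned with certainty. Members with a mean from 1 to 100 FPKM had a median of 15 named pseudogenes, among them RPL23A with 91, RPL21 with 66 and RPL7 with 61, and members at 100 FPKM or more had a median of 6. Over the 77 tested members the rank correlation between mean FPKM and the number of pseudogenes was -0.26, as a description; RPSA, with 74 pseudogenes, still averaged 313 FPKM.

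The members together took a smaller share of all FPKM in Colo800 than in A375. In Colo800 the share was 6.31% with ETV1-sh2 and 8.91% with ETV1-sh1, against 7.12% with the scrambled hairpin. In A375 it was 15.8% with ETV1-sh2 and 18.9% with ETV1-sh1, against 16.3% with the scrambled hairpin. Within each line the ETV1-sh2 library was lowest and the ETV1-sh1 library highest, and the lines did not overlap. RPL41 alone made up 1.64% to 2.15% of all FPKM in Colo800 and 5.62% to 6.65% in A375. Without it the members took 4.50%, 6.77% and 5.48% in Colo800 with ETV1-sh2, ETV1-sh1 and scrambled, and 9.37%, 12.2% and 10.7% in A375 with ETV1-sh2, ETV1-sh1 and scrambled. The mitochondrially encoded genes also differed, at 6.15% to 9.21% of all FPKM in Colo800 and 3.83% to 5.03% in A375. With these genes left out of the sum the members took 6.95% to 9.67% in Colo800 and 16.7% to 19.6% in A375.

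**Figure D1:**
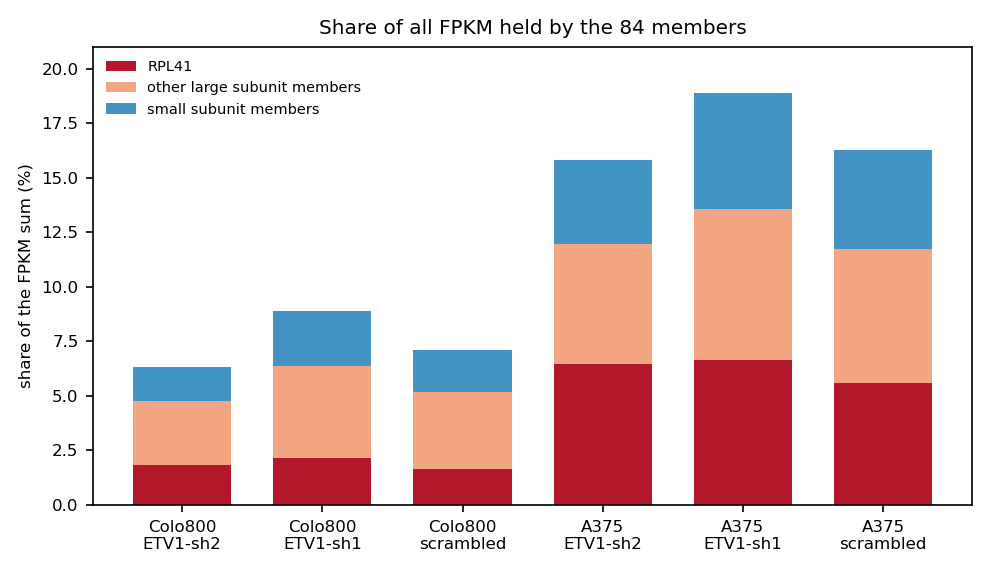
Share of the FPKM sum, in percent, held by the 84 members in each of the 6 libraries, split into RPL41, the other large subunit members and the small subunit members. Each bar is 1 library; the Colo800 bars reach 6.31% to 8.91% and the A375 bars 15.8% to 18.9%, and in both lines the ETV1-sh2 bar is the lowest and the ETV1-sh1 bar the highest.

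The first question of the design was what ETV1 hairpins as a group did against the scrambled hairpin. No member passed the threshold (adjusted p under 0.05, limma over all 11129 tested genes with the line as a block) in either direction, and percent called was 0 in each direction over all genes, where 1204 genes and 3 members had an unadjusted p under 0.05. The median log2 difference over the 77 members was -0.10, with 57 below 0, beside 0.01 over all tested genes. That median depended on the ETV1-sh2 libraries of both lines: it was 0.07 without Colo800 ETV1-sh2 and -0.002 without A375 ETV1-sh2. The member with the smallest adjusted p was RPL15, at a log2 difference of 0.78 ± 0.19 (SE) and an adjusted p of 0.301 in limma.

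The 2 hairpins differed from scrambled in opposite directions for most members. Against the scrambled library of the same line the median log2 difference of the 77 members was -0.39 in Colo800 and -0.29 in A375 with ETV1-sh2, and 0.29 in Colo800 and 0.10 in A375 with ETV1-sh1. With ETV1-sh2, 67 of 77 members in Colo800 and 68 of 77 in A375 lay below their scrambled level. With ETV1-sh1, 65 members in Colo800 and 50 in A375 lay above it. The medians over all 11129 tested genes were between -0.02 and 0.05 in these 4 comparisons. The 2 hairpins of a line share its scrambled library, so their differences from it are not independent.

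**Figure D2:**
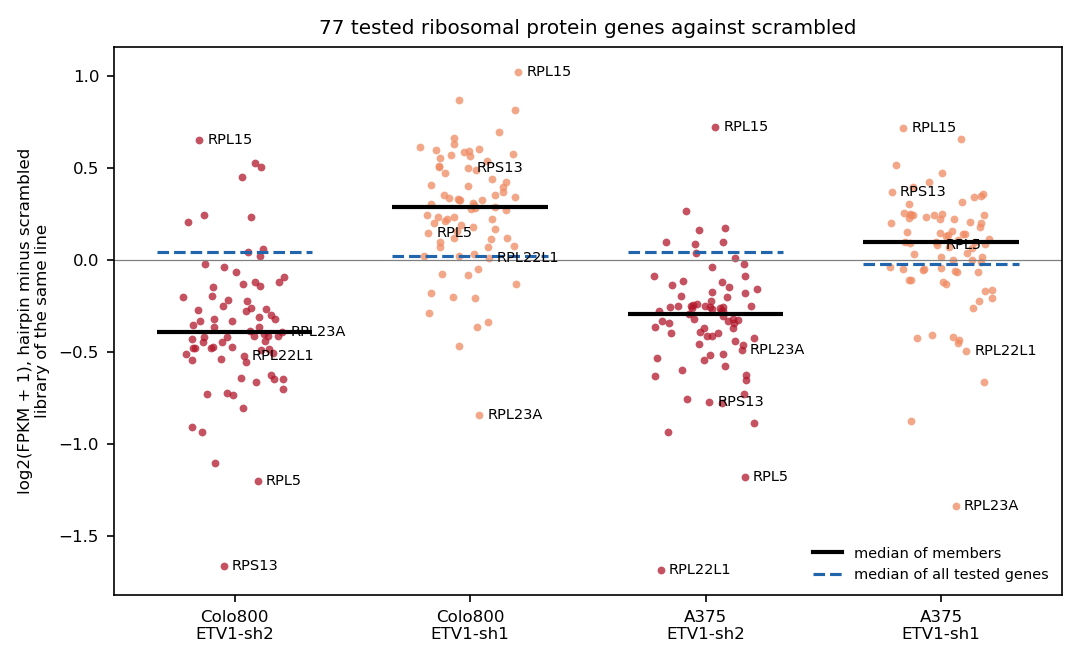
Difference in log2(FPKM + 1) of each of the 77 tested members between an ETV1 hairpin library and the scrambled library of the same line, 1 dot per member. Black bars are the members' medians (-0.39, 0.29, -0.29 and 0.10 from left to right) and dashed lines the medians of all 11129 tested genes; RPL15 lies above 0 and RPL23A below 0 in all 4 columns.

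For ETV1-sh2 against scrambled, 7 of 77 members fell and 1 rose in the limma fit with line and hairpin as terms. Over all tested genes percent called was 9.00 for lower and 7.73 for higher, so the 9.09% of members called lower lies near the background, while the median difference of the members was -0.35 and that of all tested genes 0.05. Over all genes 860 were called higher and 1002 lower, and 1187 higher and 815 lower when libraries were scaled to the same sum of the other genes, where 6 members remained lower and RPL15 higher. Called lower were RPS13, RPL5, RPL22L1, RPS24, RPL36A, RPL35A and RPL10A. No member was called in either direction without the Colo800 scrambled or without the A375 scrambled library, and without any other single library 2 or 3 were called lower. The fibroblast markers moved with this hairpin: the 6 genes summed to 29.7 FPKM with ETV1-sh2 and 10.7 with ETV1-sh1 in Colo800, against 9.78 with the scrambled hairpin, and to 34.7 with ETV1-sh2 and 15.6 with ETV1-sh1 in A375, against 13.1 with the scrambled hairpin. All 3 of them that were tested were called higher with ETV1-sh2 against scrambled, COL3A1 was at 0 in the A375 scrambled library and no other was at 0, and the part of these markers in the results for ETV1-sh2 was not tested.

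RPL5 (ENSG00000122406), which binds the smallest ribosomal RNA of the large subunit, showed the smallest adjusted p. In Colo800 it had 171 FPKM with ETV1-sh2 and 437 with ETV1-sh1, against 394 with the scrambled hairpin. In A375 it had 111 FPKM with ETV1-sh2 and 267 with ETV1-sh1, against 252 with the scrambled hairpin. The ETV1-sh2 libraries were thus at 43.5% and 44.0% of the scrambled ones, and both lay below every library with another hairpin. In the fit RPL5, on chromosome 1, differed by -1.19 ± 0.15 on the log2 scale (SE; adjusted p 0.0105, limma). RPL5 has 35 named pseudogenes, and reads shared with them cannot be assigned with certainty. RPL11, its partner in that particle, was not called, at -0.21 (adjusted p 0.370, limma): it had 2068 FPKM with ETV1-sh2 and 2704 with ETV1-sh1 in Colo800, against 2486 with the scrambled hairpin, and 3078 with ETV1-sh2 and 3759 with ETV1-sh1 in A375, against 3430.1 with the scrambled hairpin. RPL23, another MDM2 binder, was not called either, at -0.27 (adjusted p 0.237, limma).

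RPS13 (ENSG00000110700), a small subunit protein at the interface between the subunits, had the largest fitted fall. Its level in Colo800 was 106 FPKM with ETV1-sh2 and 474 with ETV1-sh1, against 336 with the scrambled hairpin. Its level in A375 was 261 FPKM with ETV1-sh2 and 576 with ETV1-sh1, against 445 with the scrambled hairpin. The fall was to 31.4% of scrambled in Colo800 and 58.6% in A375, and the fit gave a log2 difference of -1.21 ± 0.26 (SE; adjusted p 0.0308, limma). RPS24 (ENSG00000138326), needed for maturation of the small subunit RNA and mutated in Diamond-Blackfan anaemia, had 1158 FPKM with ETV1-sh2 and 2622 with ETV1-sh1 in Colo800, against 2211 with the scrambled hairpin. In A375 it had 2779 FPKM with ETV1-sh2 and 5456 with ETV1-sh1, against 5307 with the scrambled hairpin. It stood at 52.4% of scrambled in both lines, and its log2 difference was -0.93 ± 0.16 (SE; adjusted p 0.0194, limma).

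RPL22L1, a paralog of RPL22 that can take its place in the ribosome, had 32.8 FPKM with ETV1-sh2 and 47.9 with ETV1-sh1 in Colo800, against 47.4 with the scrambled hairpin. The A375 libraries had 58.6 FPKM with ETV1-sh2 and 135 with ETV1-sh1, against 191 with the scrambled hairpin. With ETV1-sh2 it stood at 69.1% of scrambled in Colo800 and at 30.8% in A375. The fitted log2 difference was -1.10 ± 0.28 (SE; adjusted p 0.0441, limma), but of the single libraries left out it kept the call only without Colo800 ETV1-sh2 (-1.56). It was -0.65 without A375 ETV1-sh2 and -0.68 without A375 scrambled, and -1.52 without Colo800 scrambled. The other 3 calls were RPL36A at -0.89 (adjusted p 0.0280), RPL35A at -0.69 (adjusted p 0.0346) and RPL10A at -0.68 (adjusted p 0.0374), all from limma. RPL36A overlaps an annotated read-through gene with HNRNPH2, has 19 named pseudogenes and was low, at 3.08 to 13.2 FPKM. RPL35A, another Diamond-Blackfan anaemia gene, had 677 FPKM with ETV1-sh2 and 1127 with ETV1-sh1 in Colo800, against 1071 with the scrambled hairpin, and 377 with ETV1-sh2 and 541 with ETV1-sh1 in A375, against 624 with the scrambled hairpin.

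RPL15 (ENSG00000174748), a large subunit protein needed for processing of its RNA, was the member that rose. In Colo800 it had 109.6 FPKM with ETV1-sh2 and 142 with ETV1-sh1, against 69.3 with the scrambled hairpin. In A375 it had 215 FPKM with ETV1-sh2 and 214 with ETV1-sh1, against 129 with the scrambled hairpin. All 4 ETV1 hairpin libraries were above the scrambled library of their line, at 158% to 205% of it. The log2 difference for ETV1-sh2 was 0.69 ± 0.17 (SE; adjusted p 0.0400, limma), a call kept only without Colo800 ETV1-sh2 among the single libraries left out, and for ETV1-sh1 it was 0.87 ± 0.17 (SE; adjusted p 0.0637, limma). The start shown for RPL15 has no pyrimidine tract in the window searched.

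For ETV1-sh1 against scrambled, 1 of 77 members fell and 0 rose in limma, with percent called at 1.51 for lower and 0.773 for higher over all tested genes. At an unadjusted p under 0.05 the members counted 3 lower and 10 higher, of 77, beside 2095 of 11129 genes in either direction, which is a similar share. The median difference of the members was 0.18, with 60 above 0, and that of all tested genes was 0.00. The member that fell was RPL23A, a large subunit protein beside the exit of the nascent chain. It had 17.5 FPKM with ETV1-sh2 and 12.5 with ETV1-sh1 in Colo800, against 23.2 with the scrambled hairpin, and 39.6 with ETV1-sh2 and 21.5 with ETV1-sh1 in A375, against 55.8 with the scrambled hairpin. The log2 difference was -1.09 ± 0.19 (SE; adjusted p 0.0479, limma). The call was lost without either ETV1-sh1 library (-1.31 without Colo800 ETV1-sh1, -0.87 without A375 ETV1-sh1) and without either scrambled library (-1.24 without Colo800 scrambled, -0.94 without A375 scrambled). RPL23A has the most named pseudogenes of the members, so its level is uncertain.

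RPS25 and RPS20, small subunit proteins, were also above scrambled with ETV1-sh1 and did not pass the threshold. RPS25 had 1174 FPKM with ETV1-sh2 and 1959 with ETV1-sh1 in Colo800, against 1293 with the scrambled hairpin, and 3164 with ETV1-sh2 and 4220 with ETV1-sh1 in A375, against 2953 with the scrambled hairpin. Its log2 difference for ETV1-sh1 was 0.56 (adjusted p 0.155, limma), and that of RPS20 was 0.51 (adjusted p 0.157, limma).

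More members passed between ETV1-sh2 and ETV1-sh1 than between either hairpin and scrambled. Of 77 members 15 fell and 0 rose in limma, which is 19.5% of members called lower, with percent called at 6.91 for lower and 6.82 for higher over all tested genes. The median difference was -0.54, with 70 of 77 members below 0, beside 0.05 over all tested genes. Among the 30 small subunit members 9 fell, among them RPS12, RPS13, RPS14, RPS24 and RPS27A, and among the 47 large subunit members 6 fell, namely RPL10, RPL10A, RPL14, RPL35A, RPL5 and RPLP2. No member was called without the Colo800 ETV1-sh1 or without the A375 ETV1-sh1 library, 6 were called lower without the Colo800 ETV1-sh2 library or without either scrambled library, and 12 without the A375 ETV1-sh2 library. This comparison shares the ETV1-sh2 libraries with that of ETV1-sh2 against scrambled. Relative depth did not order the hairpins alike in the lines: ETV1-sh2 was the shallowest library of Colo800 (0.768) and the deepest of A375 (2.10). The part of depth in this result was not tested.

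In this comparison RPS13 had a log2 difference of -1.65 ± 0.26 (SE; adjusted p 0.0155, limma), RPL5 one of -1.30 ± 0.15 (adjusted p 0.00804) and RPS24 one of -1.08 ± 0.16 (adjusted p 0.0137). RPS14, a small subunit protein whose haploinsufficiency is known from a form of myelodysplastic syndrome, had 182 FPKM with ETV1-sh2 and 470.0 with ETV1-sh1 in Colo800, and 524 with ETV1-sh2 and 777 with ETV1-sh1 in A375 (log2 difference -0.97, adjusted p 0.0373, limma). RPS27A, made as a fusion of ubiquitin to a ribosomal protein, had 111 FPKM with ETV1-sh2 and 215 with ETV1-sh1 in Colo800, and 159.6 with ETV1-sh2 and 268 with ETV1-sh1 in A375 (log2 difference -0.85, adjusted p 0.0262, limma).

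The stalk proteins recruit elongation factors to the large subunit, and RPLP2 was the 1 of 3 that passed. RPLP2 had 83.1 FPKM with ETV1-sh2 and 173 with ETV1-sh1 in Colo800, and 127 with ETV1-sh2 and 174 with ETV1-sh1 in A375, a log2 difference of -0.75 (adjusted p 0.0497, limma). RPLP0 had 423 FPKM with ETV1-sh2 and 842 with ETV1-sh1 in Colo800, and 1003 with ETV1-sh2 and 1362 with ETV1-sh1 in A375, a log2 difference of -0.72 (adjusted p 0.0539, limma). RPLP1 had a log2 difference of -0.56 (adjusted p 0.103, limma). Among other Diamond-Blackfan anaemia genes RPS19 had -0.76 (adjusted p 0.0529), RPS10 -0.55 (adjusted p 0.0958) and RPS7 -0.45 (adjusted p 0.0962), while RPS26 had 0.22 (adjusted p 0.661), all from limma. RPL3 and RPL10, proteins near the peptidyl transferase centre and the transfer RNA sites, had -0.79 (adjusted p 0.0593) and -0.74 (adjusted p 0.0267), RPS4X -0.66 (adjusted p 0.0525), RPSA -0.49 (adjusted p 0.0925) and RPL4 -0.45 (adjusted p 0.0964), all from limma. RPL3 had 444 FPKM with ETV1-sh2 and 903 with ETV1-sh1 in Colo800, beside 956 with the scrambled hairpin, and 1061 with ETV1-sh2 and 1565 with ETV1-sh1 in A375, beside 1323 with the scrambled hairpin. Its ETV1-sh2 library was the lowest of each line. Over the 77 members the fitted differences ran from -1.65 to 0.65, with quartiles of -0.67 and -0.40. RPS6, the substrate of the S6 kinases, had -0.24 (adjusted p 0.311, limma), and RPL41 -0.23 (adjusted p 0.421, limma).

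The lines share no library, and the difference of ETV1-sh2 from ETV1-sh1 could be set side by side in them. It was below 0 in both lines for 68 members, above 0 in both for 7 and of opposite sign for 2. Over the 77 members Pearson's r between the lines was 0.77 and Spearman's rho 0.63, as a description across genes, beside 0.61 and 0.60 over all tested genes. The median was -0.64 in Colo800 and -0.39 in A375. In Colo800 12 members and in A375 3 members were at least 2-fold lower on the log2(FPKM + 1) scale, as were 621 and 836 of the 11129 tested genes in Colo800 and A375, so that the members' share lay above that of all tested genes in Colo800 and below it in A375. The difference between the lines in this contrast was not tested. ETV1-sh2 was the lowest library of its line for 64 members in Colo800 and 63 in A375, and for 61 in both. The order ETV1-sh2, then scrambled, then ETV1-sh1 from low to high held in both lines for 40 members, among them RPL5, RPL10, RPL11, RPS13, RPS14, RPS24, RPLP0 and RPLP2. How many of all tested genes kept these orders, or shared a sign in both lines, was not counted. These counts of members therefore have no background beside them.

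**Figure D3:**
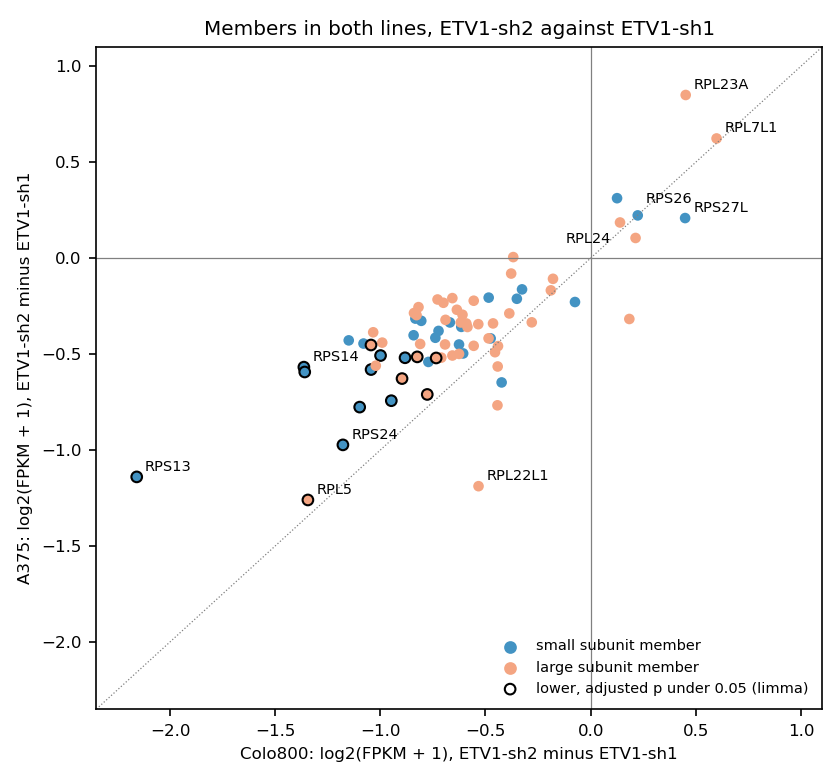
Difference in log2(FPKM + 1) between ETV1-sh2 and ETV1-sh1 for each of the 77 tested members, Colo800 on the x axis and A375 on the y axis, coloured by subunit. Black rings mark the 15 members called lower by limma, and the dotted line marks equal differences; 68 members lie in the lower left field, with RPS13 and RPL5 farthest from 0.

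ETV1-sh2 was not the lowest library in both lines for 16 members, which included the paralogs RPL26L1, RPL39L, RPL7L1 and RPS27L, as well as RPL15, RPL23A, RPL24, RPL41, RPS25, RPS26 and RPS27. Of these 16, RPL24, RPL28, RPL31, RPL34, RPL41, RPS25 and RPS27 had a pyrimidine tract in the window searched. RPL15, RPL26L1, RPL7L1, RPS26 and RPS27L had none, and the others had no promoter entry. RPL7L1, an RPL7-like protein found in precursors of the large subunit, had 33.5 FPKM with ETV1-sh2 and 21.8 with ETV1-sh1 in Colo800, beside 28.3 with the scrambled hairpin, and 23.8 with ETV1-sh2 and 15.1 with ETV1-sh1 in A375, beside 24.4 with the scrambled hairpin. Its log2 difference of ETV1-sh2 from ETV1-sh1 was 0.61 (adjusted p 0.0650, limma), and RPL23A had 0.65 (adjusted p 0.0700, limma). RPS27L, a p53-induced copy of RPS27, had 110.0 FPKM with ETV1-sh2 and 80.3 with ETV1-sh1 in Colo800, and 283 with ETV1-sh2 and 244 with ETV1-sh1 in A375, a log2 difference of 0.33 (adjusted p 0.241, limma).

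Members with and without a pyrimidine tract in the window searched were described side by side. For ETV1-sh2 against ETV1-sh1 the median log2 difference was -0.56 over the 50 members with the tract, 11 of them called lower, and -0.35 over the 13 without, 2 of them called lower. Members with CCGGAA in the promoter window had a median of -0.56 (6 of 35 called lower) and members without it -0.52 (7 of 28 called lower). The 26 members that host a small nucleolar RNA in an intron had a median of -0.54 and the 51 others -0.50. None of these splits was tested.

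The knockdown effect, both ETV1 hairpins against scrambled, was also compared between the lines. Percent called was 0 in each direction over all genes and 0 of 77 members passed, with 66 genes and 0 members at an unadjusted p under 0.05. The largest member difference was RPS26, a small subunit protein at the messenger RNA exit, with 1.16 on the log2 scale for Colo800 minus A375 (adjusted p 1.00, limma). RPS26 had 7.43 FPKM with ETV1-sh2 and 6.22 with ETV1-sh1 in Colo800, against 4.94 with the scrambled hairpin, and 11.2 with ETV1-sh2 and 9.43 with ETV1-sh1 in A375, against 18.1 with the scrambled hairpin. Both hairpin libraries were above scrambled in Colo800 and below it in A375. The members' median of this difference was 0.08, and it was of either sign, -0.26 to 0.40, when single hairpin libraries were left out.

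**Figure D4:**
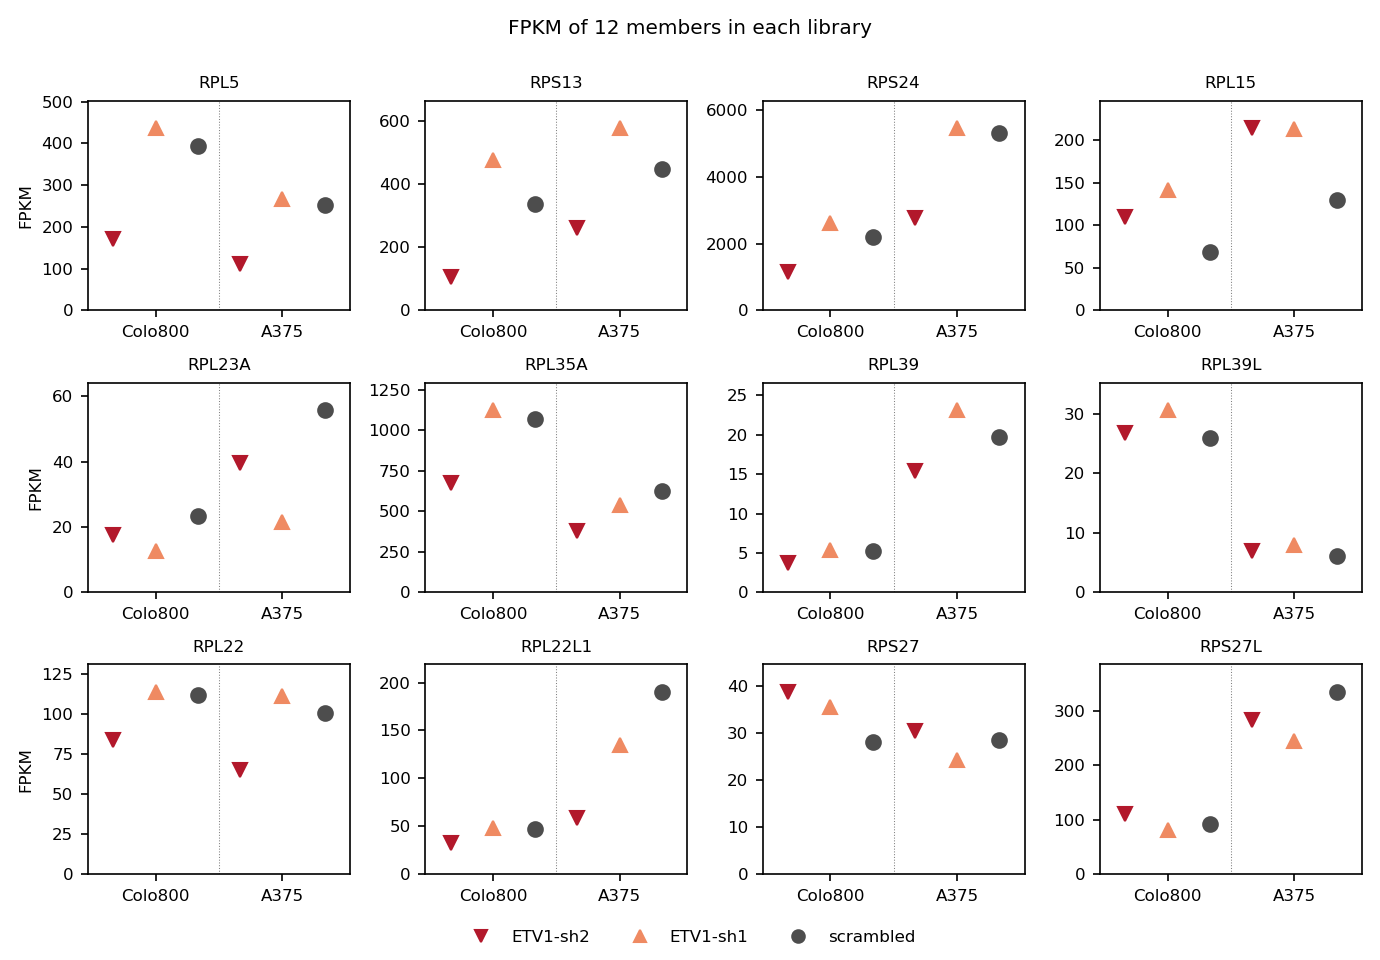
FPKM of 12 members in each of the 6 libraries, 1 point per library on a linear axis that starts at 0, with Colo800 to the left and A375 to the right of the dotted line. RPL5, RPS13 and RPS24 are lowest with ETV1-sh2 in both lines, RPL15 is lowest with the scrambled hairpin, and RPL39 and RPL39L lie on opposite sides between the lines.

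Most members were lower in Colo800 than in A375. In limma 56 of 77 members were lower and 3 higher in Colo800, or 72.7% lower, with percent called at 25.3 for lower and 31.8 for higher over all tested genes. The median log2 difference was -0.84, beside 0.07 over all tested genes. Over all genes 3542 were called higher and 2811 lower, and 2335 higher and 4250 lower when libraries were scaled to the same sum of the other genes, where 67 members were lower and the same 3 higher. Leaving out any single library left 44 to 54 members lower and 3 higher. Lower were 33 of 47 large subunit members and 23 of 30 small subunit members, and no small subunit member was higher. Within each hairpin the median of the members was -0.93 with ETV1-sh2, -0.66 with ETV1-sh1 and -0.88 with the scrambled hairpin. All 3 Colo800 libraries lay below all 3 A375 libraries for 46 members, or 59.7%, as they did for 21.6% of all tested genes. Relative depth and the mitochondrial share given above also separated the lines, and the part of depth in this result was not tested.

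RPL29, a large subunit protein, had 156 FPKM with ETV1-sh2, 259 with ETV1-sh1 and 195 with the scrambled hairpin in Colo800, against 555 with ETV1-sh2, 644 with ETV1-sh1 and 665 with the scrambled hairpin in A375. Its log2 difference was -1.63 ± 0.15 (SE; adjusted p 0.000426, limma). RPL13A, also known for a role in silencing inflammatory messages outside the ribosome, had 151, 265 and 176 FPKM in Colo800 with ETV1-sh2, ETV1-sh1 and scrambled, against 514, 702 and 547 FPKM in A375 with ETV1-sh2, ETV1-sh1 and scrambled. Its log2 difference was -1.60 ± 0.13 (SE; adjusted p 0.000333, limma). RPS6 had 797, 999.8 and 1052 FPKM in Colo800 with ETV1-sh2, ETV1-sh1 and scrambled, against 2349, 2630.4 and 2947 FPKM in A375 with ETV1-sh2, ETV1-sh1 and scrambled, a log2 difference of -1.48 ± 0.13 (SE; adjusted p 0.000354, limma). RPL41 had 11749, 15268 and 11570.3 FPKM in Colo800 with ETV1-sh2, ETV1-sh1 and scrambled, against 38040.4, 40224 and 35466 FPKM in A375 with ETV1-sh2, ETV1-sh1 and scrambled, a log2 difference of -1.57 ± 0.15 (SE; adjusted p 0.000501, limma). For these 4 members the lines did not overlap in any library.

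The 3 members that were higher in Colo800 were RPL39L, RPL35A and RPL5. RPL35A had 677 to 1127 FPKM in Colo800 against 377 to 624 FPKM in A375, a log2 difference of 0.89 ± 0.13 (SE; adjusted p 0.00200, limma), with no overlap between the lines. RPL5 was higher in Colo800 under each hairpin, by 0.62 to 0.71 on the log2 scale (fitted difference 0.66, adjusted p 0.00467, limma), but its Colo800 ETV1-sh2 library, at 171 FPKM, lay within the A375 range of 111 to 267 FPKM. RPL21, with 66 named pseudogenes, had 10.4 to 11.9 FPKM in Colo800 against 6.98 to 10.4 FPKM in A375, and its log2 difference of 0.39 did not pass (adjusted p 0.0934, limma). RPL4 was not called either, at 0.15 (adjusted p 0.330, limma), with 435 to 609 FPKM in Colo800 against 416 to 556 FPKM in A375, nor was RPS10, at -0.12 (adjusted p 0.509, limma).

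**Figure D5:**
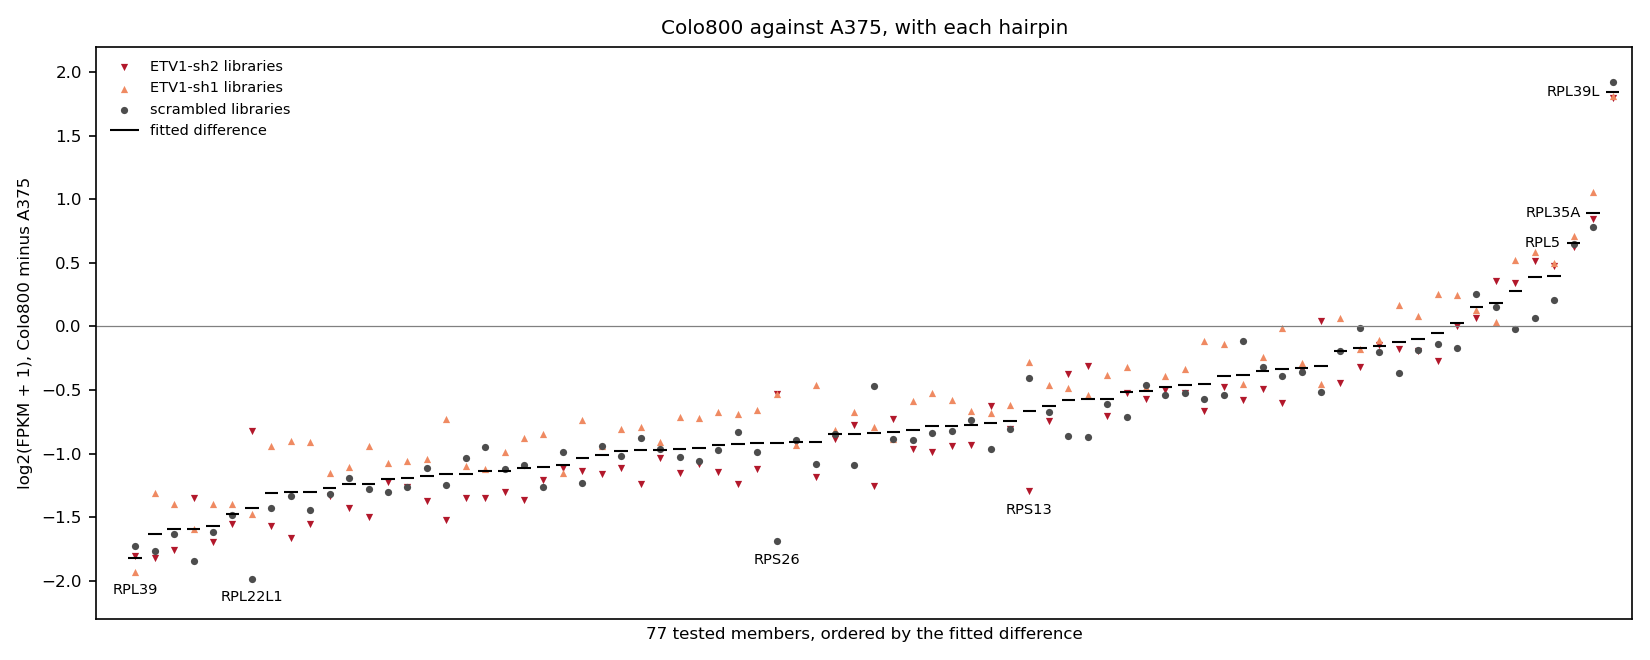
Difference in log2(FPKM + 1) between Colo800 and A375 for the 77 tested members, ordered by the fitted difference (black bars), with the difference under each hairpin as separate marks. The median of the fitted differences is -0.84; RPL39 is at the lower end with -1.82 and RPL39L at the upper end with 1.85.

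Of 5 pairs of a paralog and its partner, RPL39L and RPL39 were called in opposite directions between the lines, and RPL26L1 and RPL26 were both called lower in Colo800. In each of the other 3 pairs at most 1 gene was called. RPL39 lines the exit tunnel of the large subunit and RPL39L is its copy, best known from the testis. RPL39L had 26.7 FPKM with ETV1-sh2, 30.6 with ETV1-sh1 and 25.9 with the scrambled hairpin in Colo800, against 6.99 with ETV1-sh2, 7.97 with ETV1-sh1 and 6.09 with the scrambled hairpin in A375. RPL39 had 3.67 FPKM with ETV1-sh2, 5.35 with ETV1-sh1 and 5.24 with the scrambled hairpin in Colo800, against 15.3 with ETV1-sh2, 23.2 with ETV1-sh1 and 19.7 with the scrambled hairpin in A375. The log2 differences were 1.85 ± 0.14 for RPL39L (SE; adjusted p 0.000264, limma) and -1.82 ± 0.15 for RPL39 (SE; adjusted p 0.000310, limma). The FPKM ratio of RPL39L to RPL39 was therefore 7.28, 5.73 and 4.94 in Colo800 with ETV1-sh2, ETV1-sh1 and scrambled, and 0.455, 0.344 and 0.309 in A375 with ETV1-sh2, ETV1-sh1 and scrambled. RPL39 has 15 named pseudogenes and RPL39L has 0, so the level of RPL39 and this ratio are uncertain.

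In the pair RPL22L1 and RPL22 the paralog was the lower one in Colo800. RPL22, known to repress its paralog, was not called between the lines (log2 difference 0.18, adjusted p 0.276, limma), at 83.7 to 114 FPKM in Colo800 and 65.1 to 111 FPKM in A375. RPL22L1 had a log2 difference of -1.43 ± 0.23 (SE; adjusted p 0.00279, limma). Its FPKM ratio to RPL22 was 0.391, 0.419 and 0.422 in Colo800 with ETV1-sh2, ETV1-sh1 and scrambled, and 0.901, 1.21 and 1.89 in A375 with ETV1-sh2, ETV1-sh1 and scrambled. RPS27L was likewise lower in Colo800, at 110.0, 80.3 and 92.6 FPKM with ETV1-sh2, ETV1-sh1 and scrambled, against 283, 244 and 335 FPKM in A375 with ETV1-sh2, ETV1-sh1 and scrambled (log2 difference -1.60 ± 0.14, SE; adjusted p 0.000401, limma). RPS27 had a log2 difference of 0.28 (adjusted p 0.168, limma), and the ratio of RPS27L to RPS27 was 2.26 to 3.29 in Colo800 and 9.28 to 11.7 in A375. RPL26L1 stayed far below RPL26, with ratios of 0.0380 to 0.0720 in Colo800 and 0.0286 to 0.0432 in A375. RPL22 has 22 named pseudogenes, RPS27 has 15 and RPL26 has 14, while RPL22L1, RPS27L and RPL26L1 have 0. The levels of RPL22, RPS27 and RPL26, and with them these ratios, are therefore uncertain. So are those of other members named above, such as RPL29 with 16 named pseudogenes, RPL35A and RPS27A with 17 each, RPL10 with 19 and RPS4X with 23.

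Lists of genes around the ribosome are given beside the same shares of all tested genes, which were 6.91% lower and 6.82% higher for ETV1-sh2 against ETV1-sh1, 9.00% lower and 7.73% higher for ETV1-sh2 against scrambled, and 25.3% lower and 31.8% higher for Colo800 against A375. Of 25 tested messages listed as also starting with a pyrimidine tract, such as elongation factors, 6 fell and 1 rose with ETV1-sh2 against ETV1-sh1, with a median of -0.52, and 15 were lower and 4 higher in Colo800 than in A375, with a median of -0.61. Among them NAP1L1, a nucleosome assembly protein, had 84.9 FPKM with ETV1-sh2 and 158 with ETV1-sh1 in Colo800, and 130.2 with ETV1-sh2 and 280.1 with ETV1-sh1 in A375 (log2 difference -0.99, adjusted p 0.0148, limma). EEF2, the elongation factor that moves the ribosome along the message, had 461 FPKM with ETV1-sh2 and 831 with ETV1-sh1 in Colo800, and 887 with ETV1-sh2 and 1508 with ETV1-sh1 in A375 (log2 difference -0.81, adjusted p 0.0251, limma). EIF4A2, an RNA helicase of initiation, rose, with 491 FPKM with ETV1-sh2 and 279 with ETV1-sh1 in Colo800, and 438 with ETV1-sh2 and 192 with ETV1-sh1 in A375 (log2 difference 1.00, adjusted p 0.0237, limma). Against scrambled, 2 of the 25 listed messages fell and 1 rose with ETV1-sh2, with a median of -0.23.

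The 76 proteins of the mitochondrial ribosome, all of them tested, were called in both directions. Against scrambled, 6 of them fell and 2 rose with ETV1-sh2, with a median of -0.03. With ETV1-sh2 against ETV1-sh1, 4 fell and 4 rose with a median of -0.03, and between Colo800 and A375, 18 were lower and 20 higher in Colo800 with a median of -0.01. Of 34 genes of ribosomal RNA transcription and processing, 11 fell and 0 rose with ETV1-sh2 against scrambled, with a median of -0.59. They included NOP56, a core protein of small nucleolar particles, with 176 FPKM in the Colo800 and 88.7 in the A375 library with ETV1-sh2, against 349 and 213 FPKM in the Colo800 and A375 scrambled libraries (log2 difference -1.12, adjusted p 0.0180, limma). Against ETV1-sh1, 7 of these 34 genes fell and 2 rose with ETV1-sh2, with a median of -0.38. Between the lines 8 of these 34 genes were lower and 8 higher in Colo800, with a median of -0.18. Of 29 ribosomal protein chaperones, assembly and export factors 4 fell and 0 rose with ETV1-sh2 against scrambled, with a median of -0.42, among them BCCIP, whose yeast counterpart is a chaperone of the large subunit protein homologous to RPL23, at -1.54 (adjusted p 0.0105, limma).

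Of 35 initiation factors 6 fell and 1 rose with ETV1-sh2 against scrambled. Against ETV1-sh1, 6 of them fell and 5 rose with ETV1-sh2, with a median of -0.18. EIF3L, a subunit of the factor that prepares the small subunit for initiation, had 74.9 FPKM with ETV1-sh2 and 419 with ETV1-sh1 in Colo800, against 281 with the scrambled hairpin, and 75.3 with ETV1-sh2 and 524 with ETV1-sh1 in A375, against 391 with the scrambled hairpin. Its log2 difference for ETV1-sh2 against scrambled was -2.13 ± 0.17 (SE; adjusted p 0.00766, limma). EIF4EBP1 and EIF4EBP2, repressors of the cap-binding protein EIF4E, fell as well. Their log2 differences were -0.96 (adjusted p 0.0196) and -1.20 (adjusted p 0.0309) in limma. They were among 26 tested regulators around mTORC1. Of these 26, 3 fell and 1 rose with a median of 0.09, near the shares of all tested genes. Of 14 tested regulators of ribosomal protein genes 2 fell and 0 rose with ETV1-sh2 against scrambled, with a median of 0.11. MYC, an activator of ribosome production, was 1 of the 2: it had 12.4 FPKM with ETV1-sh2 and 38.4 with ETV1-sh1 in Colo800, against 52.7 with the scrambled hairpin, and 1.76 with ETV1-sh2 and 6.38 with ETV1-sh1 in A375, against 14.8 with the scrambled hairpin (log2 difference -2.26 ± 0.22, SE; adjusted p 0.00806, limma). RBPJ was the other regulator that fell, at -1.20 (adjusted p 0.0241, limma). Against ETV1-sh1, ETV1-sh2 had MYC lower and GABPA higher, the latter by 1.20 (adjusted p 0.0171, limma). MYC was higher in Colo800 than in A375, by 2.15 on the log2 scale (adjusted p 0.000325, limma), the opposite side from most ribosomal protein genes. The part of these regulators in the results for the members was not tested.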

How the data were processed

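RNA sequencing gave 1 library for each of 2 lines and 3 hairpins. The deposited values are FPKM; the submitters' processing notes name STAR 2.4, Cufflinks 2.2.1, Cuffnorm and the build hg19, with no annotation, strand setting, filter or scaling method stated. Depth is known only relative to 1 library, from the steps between low FPKM values, which also carry any scaling between libraries. Tests used limma 3.58.1 in R 4.3.3 (variance trend) on log2(FPKM + 1), a scale that understates the change of low genes, for 11129 genes averaging 1 FPKM or more, with Benjamini-Hochberg adjustment over all of them and a threshold of 0.05. The test of both ETV1 hairpins together took the line as a block (3 residual degrees of freedom). A model of line plus hairpin with 3 levels gave the comparisons of single hairpins and of the lines (2 residual degrees of freedom). The difference between lines in the knockdown effect used a mean per line and knockdown state. The fits were tested on simulated data. The members, by a rule on symbols, and the lists were chosen with earlier results of these data known. Genes named were the 5 highest and 5 lowest members, 4 per direction in each fit, members of set roles, and 2 to 4 per related list; other members, RPS14, RPL10A and RPS3A among them, were named after their values were seen. Gene annotation came from GENCODE 29 and start sites from RefSeq, both on GRCh38, matched by identifier or symbol; 64 of the 79 members whose identifier and symbol matched the reference had a promoter entry. No other columns were in the table. Some members enter the counts but are not reported by name here.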

Additional observations from a re-analysis of the deposited data

How the results depend on the processing

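The differences recomputed for RPL5, RPS13, RPS24, RPL15, RPL22L1, RPL23A, RPL13A, RPL29, RPL35A, RPL39, RPL39L and RPS27L kept their sign under each alternative tried for them, namely a pseudocount of 0.1, no filter, no variance trend, scaling to the same sum of the other genes, centring on the median of the tested genes, the hairpin with scrambled alone, and leaving out single libraries. Scaling to the other genes moved the median of all tested genes to -0.23 for Colo800 against A375 and to 0.13 for ETV1-sh2 against scrambled, and with it the members' medians were -1.17 and -0.25; centred on the median of the tested genes they were -0.93 and -0.36. With no filter 0 members were called lower for ETV1-sh1 against scrambled, for ETV1-sh2 against scrambled and for ETV1-sh2 against ETV1-sh1, and 0 higher for ETV1-sh2 against scrambled; over all genes these 3 comparisons then had 0 calls, with 17468 genes adjusted for. With no variance trend these member counts were 0, 4 and 9 lower and 0 higher. RPL22L1, RPL15, RPL23A and RPS13 lost their calls against scrambled under 9, 8, 8 and 7 of 12 alternatives. RPS24 and RPL5 lost theirs for ETV1-sh2 under 5 and 3. RPL35A and RPL10A kept theirs only with a pseudocount of 0.1, with scaling to the other genes and with centring. RPL36A kept its call under these and with no variance trend, and under no other alternative. For ETV1-sh1 against scrambled, scaling to the other genes gave 0 lower and 2 higher, centring gave 0 lower, and the hairpin with scrambled alone gave 2 higher, RPL15 being one both times. The hairpin with scrambled alone gave 2 lower and 0 higher for ETV1-sh2. The cause of these moves was not tested. Leaving out 1 library at a time, which leaves 1 residual degree of freedom in most fits, gave 0 to 2 higher and 0 to 1 lower for ETV1-sh1 against scrambled, 0 to 1 higher and 0 to 3 lower with a median of -0.43 to -0.24 for ETV1-sh2 against scrambled, 0 to 12 lower for ETV1-sh2 against ETV1-sh1, and a median of -0.26 to 0.40 for the knockdown effect in Colo800 minus A375. That difference could not be fitted without a scrambled library. The fits pair the hairpins through the line term, and without it both ETV1 hairpins together still gave 0 calls in limma (301 genes at an unadjusted p under 0.05). No paired analysis was possible by replicate number because no 2 groups share more than 1 replicate number. Without an absolute depth the counting error of low members such as RPL7 cannot be given.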
